A study of Mus musculus with 14 samples.

Results

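Solute carriers are the membrane proteins that move nutrients, ions, metals and metabolites into and out of cells and organelles. Each numbered family has its own substrates, so that Slc7 proteins carry amino acids, Slc2 proteins sugars, Slc30 and Slc39 proteins zinc, and Slc25 proteins the metabolites that cross the inner mitochondrial membrane. A T cell that is activated takes up far more amino acids, glucose and iron than a resting one, and several of its carriers follow growth signals. The genes described here are those whose symbol starts with Slc and a number, without 13 carriers, most of them of amino acids, glucose or lactate (Slc2a1, Slc16a1, Slc16a3, Slc7a1, Slc7a3, Slc7a5, Slc7a11, Slc3a2, Slc1a4, Slc1a5, Slc38a1, Slc38a2 and Slc22a15). Of 362 such genes with a probe set of their own, 349 remained after that exclusion, and 190 of them had a brightest probe set whose mean log2 intensity over the 14 arrays reached 6.29, the 40th percentile of all probe sets with 1 symbol. The other 159 were dimmer and were not tested.

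The cells were splenic CD4+ T cells of male C57BL/6 mice aged 6 weeks, isolated by negative selection and activated for 48 h with beads against CD3 and CD28. All of them then received interferon alpha at 100 U/ml together with a JAK inhibitor at its IC80, for 8 h or for 2 h. JAK kinases carry the signal of cytokine receptors, and the type I interferon receptor uses JAK1 and TYK2. There were 7 inhibitors, known by code and target label, namely IFN.3404 (JAK1), IFN.6221 (JAK1/2), IFN.6222 (PAN, taken here to include JAK1), IFN.2485 (TYK2), the JAK3 inhibitors IFN.6226 and IFN.6228, and IFN.3885 (JAK2). Each inhibitor had 1 Affymetrix Mouse Gene 1.0 ST array per time, 14 in all, and arrays without inhibitor were not analysed here. No culture was repeated, so a p for time or for 1 inhibitor rests on how unevenly the inhibitors changed between the times, and a p for target classes on the spread between inhibitors.

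The members were chosen by the mean intensity over the 14 arrays, which is given as a description only. Just inside the limit lay Slc30a2 at 6.29, Slc4a9 at 6.31, Slc3a1 at 6.32 and Slc24a1 at 6.33, and just outside it Slc5a11 at 6.28 and Slc7a10, Slc9a5 and Slc22a8 at 6.27 each. The members spanned 6.29 to 13.04 with a median of 7.98. The brightest probe sets belonged to the mitochondrial ADP/ATP carrier Slc25a5 (13.04) and the mitochondrial phosphate carrier Slc25a3 (12.08). The symbol rule also took in 4 genes that are no carriers, Slc4a1ap, Slc7a6os, Slc9a3r1 and Slc9a3r2, which are named after a carrier they bind or neighbour. By the number in the symbol, 38 members fell in the mitochondrial group, 35 in that of sugars and nucleotide sugars, 29 in that of ions (Slc4a1ap, Slc9a3r1 and Slc9a3r2 counted in it), 27 in that of metals, 22 in that of amino acids and peptides (Slc7a6os counted in it), 15 in that of nucleosides, vitamins, choline and acetyl-CoA, and 24 in a group of monocarboxylates, organic ions, lipids and other substrates.

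The T cell label was borne out by its markers, since Cd3e had a mean log2 intensity of 12.37 and Cd4 of 11.82. Summed intensity of the 5 T cell markers measured was 22100 to 23460 at 8 h and 18240 to 20250 at 2 h, and that of the 4 B cell markers measured was 1629 to 1953 at 8 h and 1257 to 1436 at 2 h. The cytotoxic T cell markers Cd8a and Cd8b1, with mean log2 intensities of 6.81 and 8.99, had sums of 646 to 771 at 8 h and 501 to 563 at 2 h. Every 8 h array had higher sums than every 2 h array for each of these lists. Their part in the changes with time below was not tested. Fewer cells of a type and less RNA per cell cannot be told apart in such RNA. Among the 8 h arrays, those of the JAK1 and JAK2 inhibitors lay at opposite ends. The upper quartile of intensity was 398 with the JAK1 inhibitor, 497 with the JAK2 inhibitor and 427 to 464 on the other 8 h arrays. The JAK1 array held the lowest 8 h value of 90 of the 190 members (47.4%), as of 45.6% of all genes tested. The JAK2 array held the highest of 91 members (47.9%), as of 43.1% of all genes tested.

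Between the times, 96 of the 190 solute carriers changed at a limma adjusted p under 0.05, with 52 higher and 44 lower at 8 h. This was 50.5% of the members, beside a background of 49.6% among the 11761 genes tested, of which 21.4% were higher and 28.2% lower. The members' median difference was 0.05 on the log2 scale, against 0.02 over all genes tested. In 77 members the sign was the same under all 7 inhibitors, which is 40.5%, beside a background of 38.5%. All 7 arrays at 8 h lay above all 7 at 2 h in 23 members (background 8.92%) and below them in 28 (background 15.6%), together 26.8% of the members and 24.6% of all genes. The 190 members therefore changed about as often as other genes. This does not cover the carriers excluded by the rule, of which 12 were tested and 11 were lower at 8 h. The description below turns on which members went up and which went down. With each array centred on its own median the calls were 36 higher and 46 lower, so the split between the directions depends on the scaling. Of the variation of a member over the 14 arrays, the median share was 32.9% for time, 26.9% for the inhibitor and 26.3% for the rest, against 32.4%, 28.7% and 26.6% over all genes tested.

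**Figure D1:**
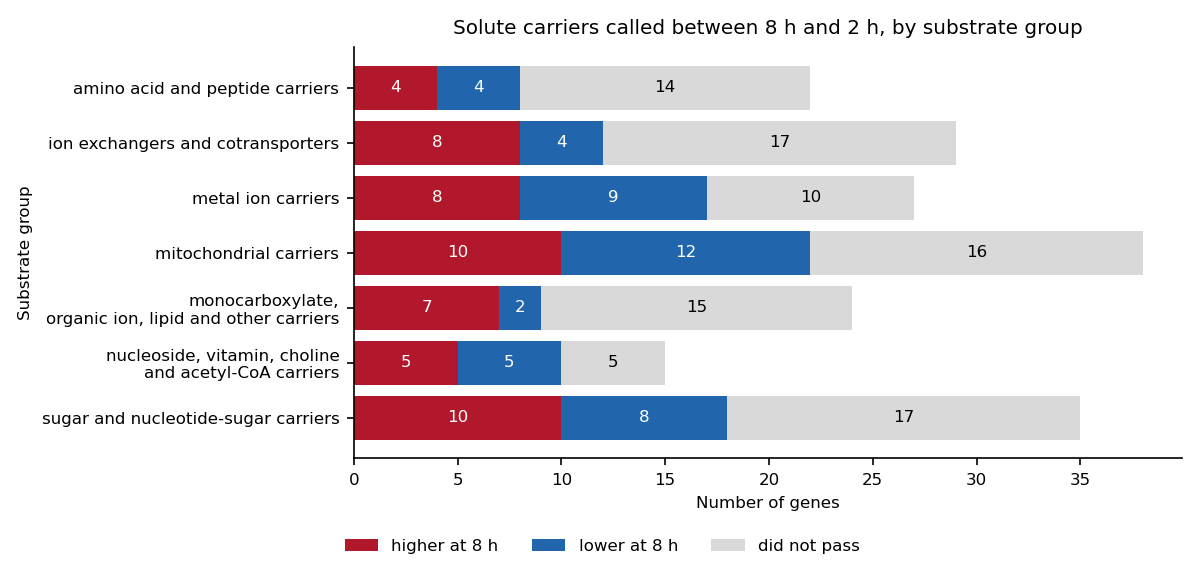
Number of solute carriers (x axis) that were higher at 8 h, lower at 8 h or did not pass the limma test, for each substrate group (y axis). Both directions occur in every group, from 4 higher and 4 lower among the 22 genes of the amino acid and peptide group to 10 higher and 12 lower among 38 mitochondrial carriers.

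Promoter sequences were at hand from RefSeq (mouse assembly GRCm38.p6) for 151 of the 190 members, as 198 windows of 250 bases before to 50 bases after a start site. The E-box CACGTG, a palindrome that growth factors of the Myc family and the lysosomal regulator Tfeb are known to bind, occurred in 14.1% of these windows and in 7.15% of the 32851 windows of all genes. The windows of all genes cover 27025 genes, also those too dim to be tested or without a probe set. These shares therefore come from unlike sets, and a share over the genes tested was not taken. Among the windows of members that fell the E-box was present in 17.6%, and among those of members that rose in 17.6% too. That was 9 of 51 windows in each set, in 9 of 33 genes that fell and 8 of 42 that rose. Whether the E-box goes with a direction was not tested. The STAT dimer site TTCNNNGAA, searched on both strands, occurred in 8 of the 198 windows of members, or 4.04%, and in 8.3% of all. It was in 1 window of members that fell (1.96%) and in 5 of members that rose (9.8%), counts too small to compare. Stretches around the E-box are shown for 2 carriers that fell and 2 that rose, with the E-box in capitals.
Slc39a8 promoter, fell, chr3:135825556-135825621, plus strand: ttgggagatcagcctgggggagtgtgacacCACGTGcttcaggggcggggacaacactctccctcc
Slc25a1 promoter, fell, chr16:17928423-17928469, minus strand: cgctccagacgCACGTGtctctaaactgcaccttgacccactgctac
Slc43a1 promoter, rose, chr2:84840229-84840294, plus strand: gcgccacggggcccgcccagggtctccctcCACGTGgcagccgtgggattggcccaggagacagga
Slc12a9 promoter, rose, chr5:137333653-137333718, minus strand: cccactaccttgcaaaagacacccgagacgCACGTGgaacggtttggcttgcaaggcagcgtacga
The E-box began 71, 239, 64 and 106 bases before a RefSeq start site of Slc39a8, Slc25a1, Slc43a1 and Slc12a9. In Slc39a8, Slc43a1 and Slc12a9 that start site lay inside the gene and not at its upstream edge. A match of letters is a description and says nothing about binding in these cells.

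Of the 22 genes of the amino acid and peptide group 4 rose, 4 fell and 14 did not pass. Slc6a9, the glycine transporter GlyT1, showed the largest change of any member. Its log2 intensity was 7.25 to 7.68 (median 7.53) on the 7 arrays at 8 h and 8.88 to 9.36 (median 9.01) on the 7 at 2 h. The arrays of the times did not overlap, and the fall was 1.54 on the log2 scale (SE 0.07), or 2.91-fold, with a limma adjusted p of 1.36e-09. Slc7a6, a light chain that forms the y+LAT2 exchanger with Slc3a2, had 8.35 to 9.04 (median 8.82) at 8 h and 9.76 to 9.98 (median 9.80) at 2 h. It fell by 1.04 (SE 0.07, limma adjusted p 3.79e-08), again without overlap. Its neighbour Slc7a6os, which is not a carrier, fell by 0.34 (SE 0.06). Slc16a10, which carries aromatic amino acids although its family is that of the monocarboxylate carriers, had 6.76 to 7.26 (median 6.96) at 8 h and 7.94 to 8.33 (median 8.17) at 2 h. This fall of 1.22 (SE 0.09, limma adjusted p 1.00e-07) was the second largest among the members.

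Slc38a9 is the lysosomal protein that senses arginine for the growth kinase complex mTORC1. Its log2 intensity was 9.57 to 9.83 (median 9.77) at 8 h and 8.76 to 9.24 (median 9.06) at 2 h, a rise of 0.70 (SE 0.07, limma adjusted p 1.81e-06) with no overlap. The proton-coupled amino acid carrier Slc36a1, which also sits on lysosomes, had 8.53 to 8.86 (median 8.68) at 8 h and 8.03 to 8.37 (median 8.32) at 2 h and rose by 0.39 (SE 0.07). Slc66a1, a lysosomal carrier of cationic amino acids, rose by 0.33 (SE 0.06), with arrays of the times overlapping. Slc38a7, known in human cells as a lysosomal glutamine carrier, rose by 0.22 (SE 0.07). Slc43a1, a facilitative carrier of large neutral amino acids at the cell surface, had 7.29 to 7.78 (median 7.61) at 8 h and 6.49 to 7.08 (median 6.91) at 2 h and rose by 0.73 (SE 0.09, limma adjusted p 1.42e-05). The lysosomal peptide and histidine carrier Slc15a3 fell by 0.17 (SE 0.07, limma adjusted p 0.0423), and this call ended when the JAK1/2, the JAK2 or either JAK3 inhibitor was left out, with adjusted p of 0.0706 to 0.133. The call also ended with no filter on the genes tested (limma adjusted p 0.0687) and without pairing by inhibitor (limma adjusted p 0.0509). Slc15a4, a relative of Slc15a3, differed by 0.10 (SE 0.07) and the taurine carrier Slc6a6 by -0.12 (SE 0.06), and neither passed. Slc43a3, among the 10 brightest members, differed by 0.15 (SE 0.06, limma adjusted p 0.0518), and it passed with quantile normalization at 0.20 (adjusted p 9.29e-04) and without the JAK1 inhibitor at 0.21 (adjusted p 0.00215).

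**Figure D2:**
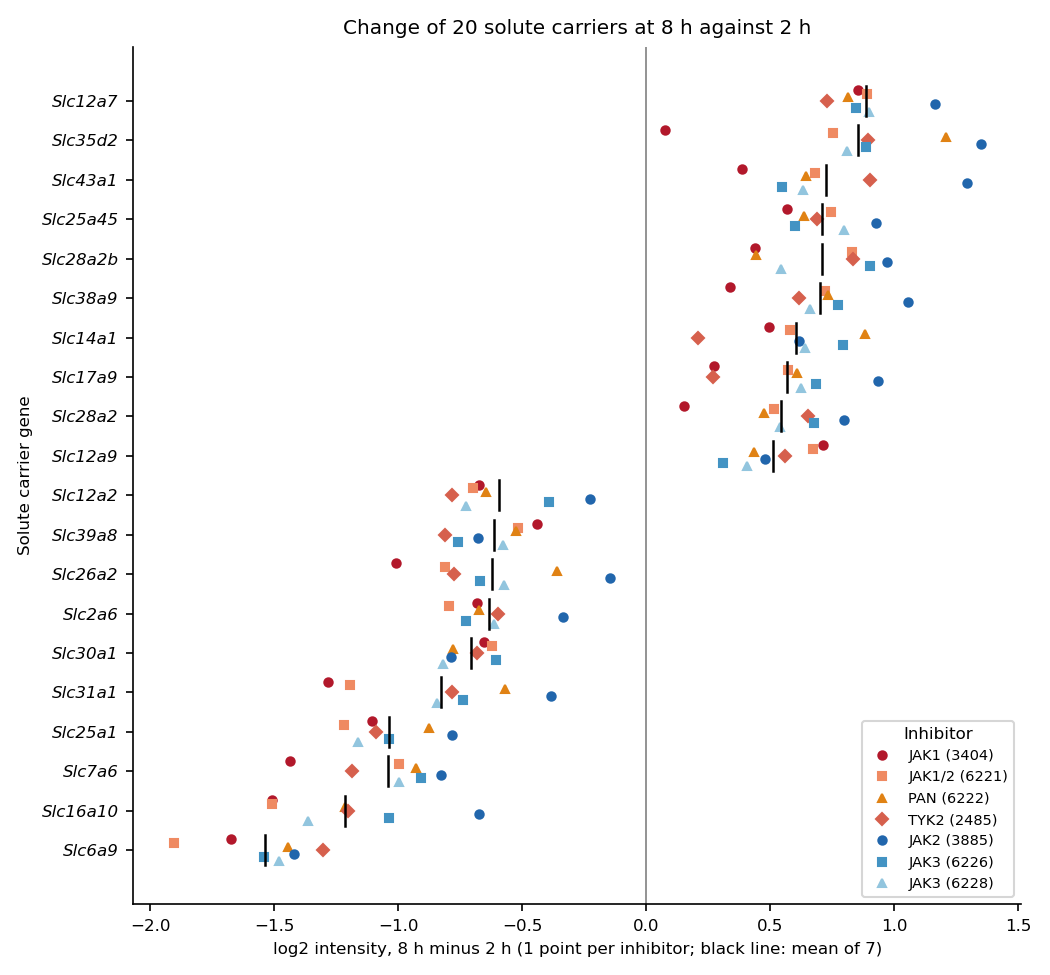
Log2 intensity at 8 h minus that at 2 h (x axis) for the 10 carriers with the largest rise and the 10 with the largest fall among those with 1 sign under all 7 inhibitors (y axis). Each symbol is 1 inhibitor and each black line the mean of 7; Slc6a9 lies at the far left with a mean of -1.54 and Slc12a7 at the far right with 0.88.

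Of the 13 carriers excluded by the rule, 12 were tested, of which 11 were lower at 8 h and 0 higher, with a median difference of -0.72, led by Slc7a5 at -1.69, Slc7a1 at -1.43 and Slc7a3 at -1.39. Slc3a2, the heavy chain that Slc7a6 needs, fell by 0.86, and Atf4 and Myc, factors known to raise amino acid carriers, fell by 0.72 and 0.57. The part of Atf4 and Myc in the falls of carriers was not tested. Of 26 genes of the ABC family, 11 were higher and 4 lower, led by the cholesterol exporter Abca1 at 1.13. The lower ones were the transporter Abcc1 at -0.87, and Abce1 at -0.79, Abcf2 at -0.34 and Abcf1 at -0.16. Abce and Abcf proteins belong to the family by sequence and are not membrane transporters.

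Metal carriers changed in both directions, with 8 higher, 9 lower and 10 of the 27 not passing. Slc31a1, the copper importer CTR1, had a log2 intensity of 7.67 to 8.23 (median 8.10) at 8 h and 8.61 to 8.99 (median 8.87) at 2 h. It fell by 0.83 (SE 0.09, limma adjusted p 6.16e-06) without overlap. Slc30a1, which exports zinc across the cell surface and is a known target of the zinc-sensing factor Mtf1, had 6.97 to 7.20 (median 7.05) at 8 h and 7.67 to 8.00 (median 7.77) at 2 h. The fall of 0.71 (SE 0.06, limma adjusted p 2.50e-07) was even across inhibitors, with an SD of 0.09 over the 7. The metallothioneins Mt1 and Mt2, zinc-binding proteins under the same factor, fell by 0.39 and 0.55. Mtf1 itself differed by -0.17 (limma adjusted p 0.0717) and did not pass, and its part in these falls was not tested. The zinc exporter Slc30a4 fell by 0.57 (SE 0.09), and of 8 Slc30 genes 3 were lower and 0 higher.

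The zinc importers of the Slc39 family divided, with 5 higher and 4 lower of 13. Slc39a8 (ZIP8) had 7.26 to 7.49 (median 7.44) at 8 h and 7.86 to 8.14 (median 8.02) at 2 h and fell by 0.62 (SE 0.06, limma adjusted p 2.19e-06). Slc39a6 (ZIP6) had 7.50 to 7.98 (median 7.70) at 8 h and 8.03 to 8.28 (median 8.11) at 2 h and fell by 0.43 (SE 0.06). Slc39a10 (ZIP10), the closest relative of Slc39a6, rose: it had 8.33 to 8.94 (median 8.62) at 8 h and 8.14 to 8.40 (median 8.26) at 2 h, a difference of 0.35 (SE 0.08, limma adjusted p 0.00230). The arrays of the times overlapped in Slc39a10, and the value was higher at 8 h under all 7 inhibitors. Slc39a14 (ZIP14), known as an inflammation-induced importer in liver, differed by -0.09 (SE 0.06) and did not pass.

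For iron, the divalent metal importer Slc11a2 rose by 0.34 (SE 0.06, limma adjusted p 1.59e-04), with 8.33 to 8.74 (median 8.67) at 8 h and 8.08 to 8.41 (median 8.27) at 2 h. The mitochondrial iron importer Slc25a37 (mitoferrin 1) had 7.99 to 8.64 (median 8.27) at 8 h and 8.77 to 9.04 (median 8.84) at 2 h and fell by 0.56 (SE 0.08, limma adjusted p 5.99e-05). Slc25a38, the mitochondrial glycine importer for heme synthesis, fell by 0.50 (SE 0.06). Mitoferrin 2 (Slc25a28) differed by only -0.06 (SE 0.08, 95% interval -0.23 to 0.10) and did not pass. The transferrin receptor Tfrc fell by 0.91. Erythroid cells are rich in mitoferrin 1. Of 6 erythroid markers 3 had a probe set and 1 reached the brightness limit, and the summed intensity was 192 to 231 at 8 h and 175 to 207 at 2 h. The iron exporter Slc40a1 was dimmer than the limit, and Slc11a1 was not analysed here.

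**Figure D3:**
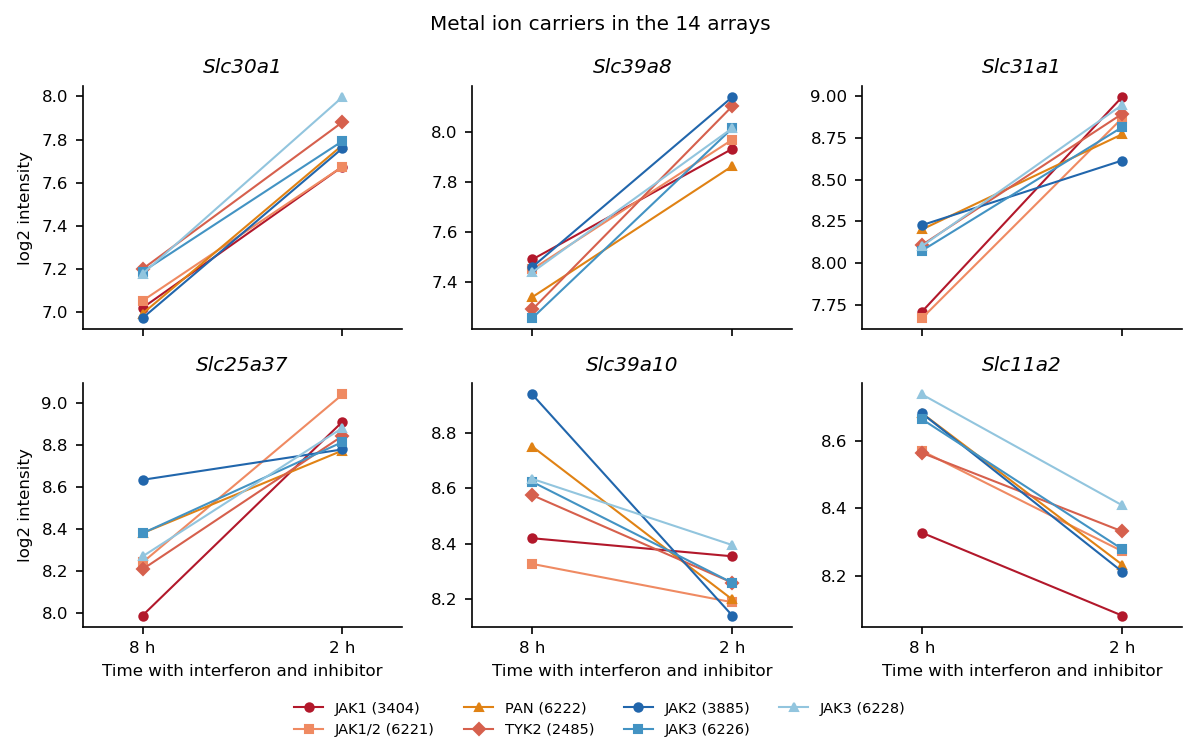
Log2 intensity (y axis) of 6 metal carriers on the 14 arrays, with 8 h left of 2 h (x axis) and 1 line per inhibitor. Slc30a1, Slc39a8, Slc31a1 and Slc25a37 were lower at 8 h on every line, and Slc39a10 and Slc11a2 higher on every line.

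In the mitochondrial family 10 members rose, 12 fell and 16 did not pass. Slc25a1, which exports citrate for fatty acid synthesis, fell most. Its log2 intensity was at most 9.29 (median 9.10) at 8 h and 10.07 to 10.24 (median 10.14) at 2 h, a fall of 1.04 (SE 0.06, limma adjusted p 8.60e-09) with no overlap. Also lower were the folate carrier Slc25a32 at -0.47 (SE 0.10), the ornithine carrier Slc25a15 at -0.44 (SE 0.06) and the aspartate and glutamate carrier Slc25a13 at -0.44 (SE 0.08). Slc25a12, the other aspartate and glutamate carrier, rose by 0.18 (SE 0.05), so the pair diverged: Slc25a13 had 7.17 to 7.80 at 8 h and 7.86 to 8.02 at 2 h, whereas Slc25a12 had 10.99 to 11.29 at 8 h and 10.85 to 11.03 at 2 h. With median centring the difference of Slc25a12 was 0.15 with an adjusted p of 0.0552. Slc25a45 rose most, with 9.15 to 9.58 (median 9.51) at 8 h and 8.58 to 8.91 (median 8.74) at 2 h, a difference of 0.71 (SE 0.06, limma adjusted p 2.25e-07).

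The ADP/ATP carrier Slc25a5 had 12.87 to 13.03 (median 12.98) at 8 h and 13.04 to 13.14 (median 13.11) at 2 h, a fall of 0.12 (SE 0.03, limma adjusted p 0.00343). With no variance trend this call ended, at an adjusted p of 0.0571. The related Slc25a4 fell by 0.15 (SE 0.05, limma adjusted p 0.0153), and its call ended without the PAN or either JAK3 inhibitor, at adjusted p of 0.0570 to 0.0625. It also ended with quantile normalization (-0.10, adjusted p 0.0776), with cyclic loess (-0.10, adjusted p 0.106) and without pairing by inhibitor (adjusted p 0.0813). The phosphate carrier Slc25a3 differed by -0.07 (SE 0.04) and did not pass. The oxoglutarate and malate carrier Slc25a11 rose by 0.23 (SE 0.05). Slc25a36, a carrier of pyrimidine nucleotides that is among the 10 brightest members, differed by -0.16 (SE 0.09) and did not pass, but without the JAK2 inhibitor it fell by 0.23 with an adjusted p of 0.0304.

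Among ion carriers, the cation-chloride cotransporters of the Slc12 family showed opposite changes. Slc12a7 (KCC4), which lets potassium and chloride out of the cell, had 9.31 to 9.51 (median 9.47) at 8 h and 8.35 to 8.62 (median 8.58) at 2 h. The rise of 0.88 (SE 0.06, limma adjusted p 3.79e-08), or 1.85-fold, was the largest of any member. Slc12a2 (NKCC1), which brings sodium, potassium and chloride in, had 7.34 to 7.83 (median 7.45) at 8 h and 7.92 to 8.23 (median 8.05) at 2 h and fell by 0.59 (SE 0.07, limma adjusted p 1.32e-05). The kinases Stk39 and Oxsr1, which are known to activate NKCC1 and restrain KCC proteins, fell by 0.79 and 0.30, and their upstream kinase Wnk1 differed by -0.06 and did not pass. The part of these kinases in the changes of Slc12 RNA was not tested. Slc12a9, an Slc12 protein of less settled function, rose by 0.51 (SE 0.06), with 7.74 to 8.08 (median 7.90) at 8 h and 7.14 to 7.51 (median 7.42) at 2 h. Of the 7 Slc12 members 3 were higher and 1 lower.

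Slc26a2, the sulphate carrier, had 8.27 to 8.83 (median 8.51) at 8 h and 8.98 to 9.28 (median 9.18) at 2 h and fell by 0.62 (SE 0.09, limma adjusted p 4.24e-05). The phosphate importer Slc20a1 fell by 0.25 (SE 0.07, limma adjusted p 0.0131). Its change was -0.79 with the JAK1 inhibitor and -0.24 to -0.08 with the other 6, and without the JAK1 inhibitor the fall was 0.16 (SE 0.04, limma adjusted p 0.00534). The chloride and bicarbonate exchanger Slc4a2 rose by 0.29 (SE 0.06), the mitochondrial sodium and calcium exchanger Slc8b1 by 0.39 (SE 0.07) and the endosomal sodium and proton exchanger Slc9a9 by 0.28 (SE 0.06). Slc4a7 was not analysed here.

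Sugar carriers other than Slc2a1 gave 3 higher and 1 lower of 5 in the Slc2 family. Slc2a3 (GLUT3), a high-affinity glucose importer of lymphocytes and neurons, had 9.36 to 9.54 (median 9.43) at 8 h and 8.86 to 9.14 (median 9.09) at 2 h and rose by 0.39 (SE 0.06, limma adjusted p 1.34e-04). Slc2a6 (GLUT6), a lysosomal member of the family, had 7.91 to 8.57 (median 8.07) at 8 h and 8.60 to 8.91 (median 8.70) at 2 h and fell by 0.63 (SE 0.06, limma adjusted p 1.54e-06). The urate carrier Slc2a9 rose by 0.35 (SE 0.06). Slc2a1 itself, the main glucose importer of activated T cells and outside the rule, differed by 0.11 (SE 0.06) and did not pass. Slc5a3, which brings in the osmolyte myo-inositol, fell by 0.58 (SE 0.09), with 7.76 to 8.48 (median 8.10) at 8 h and 8.52 to 8.90 (median 8.70) at 2 h.

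The nucleotide-sugar carriers of the Slc35 family, which feed glycosylation in the Golgi and the endoplasmic reticulum, were 6 higher and 6 lower of 20. Slc35d2 had 8.01 to 8.86 (median 8.64) at 8 h and 7.51 to 7.93 (median 7.75) at 2 h and rose by 0.85 (SE 0.11, limma adjusted p 2.57e-05). Its change was the least even among the 20 largest, from 0.07 with the JAK1 inhibitor to 1.35 with the JAK2 inhibitor. The bright family member Slc35a4 fell by 0.33 (SE 0.07, limma adjusted p 0.00103), with 10.03 to 10.69 (median 10.50) at 8 h and 10.75 to 10.90 (median 10.78) at 2 h. Slc50a1, a sugar carrier of the SWEET family, rose by 0.36 (SE 0.05), with 10.44 to 10.62 (median 10.55) at 8 h and 10.02 to 10.32 (median 10.21) at 2 h.

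Carriers of nucleosides and vitamins were called in 10 of 15, 5 in each direction. The concentrative purine nucleoside carrier Slc28a2 rose by 0.54 (SE 0.07, limma adjusted p 1.53e-05), with 9.44 to 10.07 (median 9.88) at 8 h and 9.02 to 9.51 (median 9.31) at 2 h. Its close copy Slc28a2b rose by 0.71 (SE 0.07), with 9.68 to 10.27 (median 9.92) at 8 h and 8.85 to 9.51 (median 9.25) at 2 h. RNA of one copy may bind probes of the other, so the pair cannot be told apart here. The equilibrative carrier Slc29a1 (ENT1) went the other way, at 9.32 to 9.45 (median 9.33) at 8 h and 9.71 to 9.81 (median 9.75) at 2 h, a fall of 0.39 (SE 0.05, limma adjusted p 1.46e-05). The lysosomal Slc29a3 rose by 0.17 (SE 0.07, limma adjusted p 0.0459), and this call ended when the PAN, TYK2, JAK2 or either JAK3 inhibitor was left out, at adjusted p of 0.0572 to 0.125. The call also ended with median centring (0.13, limma adjusted p 0.199) and with no filter on the genes tested (limma adjusted p 0.0670).

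Both Slc19 vitamin carriers fell. Slc19a1, which imports reduced folate and cyclic dinucleotides, had 9.14 to 9.42 (median 9.27) at 8 h and 9.57 to 9.80 (median 9.76) at 2 h and fell by 0.46 (SE 0.05, limma adjusted p 6.05e-06). The thiamine carrier Slc19a2 fell by 0.32 (SE 0.08), the vitamin C carrier Slc23a2 by 0.44 (SE 0.09) and the proton-coupled folate carrier Slc46a1 by 0.28 (SE 0.07). The choline transporter-like protein Slc44a2 rose by 0.42 (SE 0.04, limma adjusted p 1.78e-06), with 10.65 to 11.08 (median 10.97) at 8 h and 10.27 to 10.61 (median 10.56) at 2 h. Slc46a3, a lysosomal relative of the folate carrier, rose by 0.38 (SE 0.06).

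In the remaining group 7 were higher and 2 lower of 24. The urea channel Slc14a1 rose by 0.60 (SE 0.07, limma adjusted p 1.31e-05), with 8.42 to 9.05 (median 8.81) at 8 h and 7.92 to 8.43 (median 8.15) at 2 h, which overlapped. Slc17a9, which loads ATP into vesicles, had 7.98 to 8.61 (median 8.28) at 8 h and 7.49 to 7.71 (median 7.70) at 2 h and rose by 0.57 (SE 0.08, limma adjusted p 3.65e-05).

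Set against the other 6 inhibitors over both times, only the JAK1 inhibitor gave calls among the carriers, 10 of 190. This was 5.26% of the members, beside a background of 7.77%, with 9 lower (background 6.81%) and 1 higher (background 0.961%). The members' median difference was -0.06, against -0.05 over all genes. The strongest was Slc39a7 (ZIP7), which releases zinc from the endoplasmic reticulum. It had 8.54 with the JAK1 inhibitor and 8.93 to 9.14 with the others at 8 h, and 8.88 with the JAK1 inhibitor and 9.15 to 9.39 with the others at 2 h. The difference was -0.44 (SE 0.08, limma adjusted p 0.00410). Slc25a20, the carnitine carrier for fatty acid oxidation, had 7.62 with the JAK1 inhibitor and 8.12 to 8.41 with the others at 8 h, and 7.78 with it and 7.87 to 8.10 with the others at 2 h. It differed by -0.45 (limma adjusted p 0.0177), as did Slc35f2, a relative of the nucleotide-sugar carriers, by -0.45 (limma adjusted p 0.0208). The nucleotide-sugar carrier Slc35b4 differed by -0.39 (limma adjusted p 0.0307). Slc44a2 was lower by a like amount at both times, with 10.65 with the JAK1 inhibitor against 10.91 to 11.08 with the others at 8 h and 10.27 with it against 10.49 to 10.61 with the others at 2 h, and differed by -0.32 (limma adjusted p 0.00712). The zinc carrier Slc39a13 was higher, by 0.30 (limma adjusted p 0.0466). That call ended with median centring (adjusted p 0.124), with no filter (0.0712), with no variance trend (0.0520) and without the PAN, the TYK2 or either JAK3 inhibitor (0.0562 to 0.130). The call of Slc35b4 ended with median centring (adjusted p 0.0541) and without the TYK2 inhibitor or IFN.6228 (0.0696 and 0.0592), and without IFN.6228 those of Slc25a20 and Slc35f2 ended too (0.0514 and 0.0566).

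The other 4 lower carriers were the glutamate carrier Slc25a22 at -0.38, the ADP/ATP carrier Slc25a4 at -0.28, the phosphate importer Slc20a1 at -0.39 and Slc37a3 at -0.37, with limma adjusted p of 0.0241 to 0.0408. All 9 lay below the other 6 inhibitors at both times and Slc39a13 above them at both, a place that goes with the difference they were called for. Of the 190 members 22 lay below at both times, 11.6% beside 12.7% of all genes tested, and 8 lay above, 4.21% beside 4.22%. Without the 8 h array of the JAK1 inhibitor, 0 of the 190 were called by limma (17 at an unadjusted p under 0.05), all 10 kept their sign, and the adjusted p were 0.0521 for Slc44a2, 0.0709 for Slc39a7 and up to 0.835 for Slc20a1. Quantile normalization gave 10 higher and 8 lower calls, cyclic loess 9 higher and 8 lower, and median centring 0 higher and 5 lower. The split between the directions thus depends on the scaling, and shares over all genes under these scalings are not given here. On the 8 h array of the JAK1 inhibitor the summed marker intensity was the lowest of the 7 at 8 h for T cells (22100), B cells (1629) and macrophages (993, 3 of 6 markers at or above the brightness limit). It was the highest of the 7 for granulocytes (321, 1 of 5), dendritic cells (276.5, 0 of 5) and erythroid cells (231, 1 of 3 measured). It lay within the others for skeletal muscle (1303, 5 of 8), cytotoxic T cells (668, 2 of 2), NK cells (250, 1 of 4) and platelets (457, 3 of 3). Their part in these values was not tested.

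**Figure D4:**
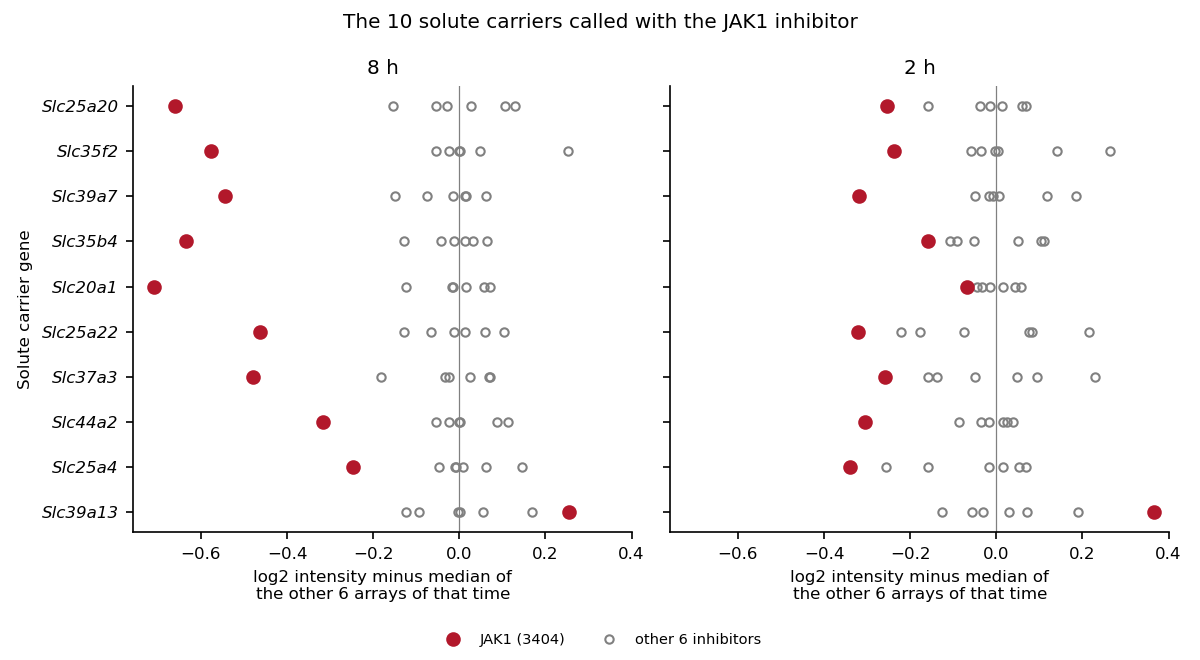
Log2 intensity minus the median of the other 6 arrays of the same time (x axis) for the 10 carriers called with the JAK1 inhibitor (y axis), at 8 h on the left and 2 h on the right. Filled circles are the JAK1 inhibitor and open circles the other 6; Slc20a1 lies 0.71 below that median at 8 h and 0.07 below it at 2 h.

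No carrier was called for any other inhibitor by limma, with an unadjusted p under 0.05 in 3 for JAK1/2, 0 for PAN, 3 for TYK2, 7 for JAK2, 4 for IFN.6226 and 9 for IFN.6228. The background of calls was 0.0085% for JAK1/2, 0.0765% for JAK2 and 0% for the other 4. The smallest p for the JAK2 inhibitor was that of Slc2a6, the lysosomal sugar carrier, which had 8.57 with the JAK2 inhibitor against 7.91 to 8.09 with the other 6 at 8 h, and 8.91 with it against 8.60 to 8.88 with the other 6 at 2 h. Its difference was 0.37 (limma adjusted p 0.153). The smallest p belonged to Slc35a3 at -0.28 for the JAK1/2 inhibitor, Slc22a13 at 0.17 for the PAN inhibitor and Slc25a23 at -0.26 for the TYK2 inhibitor. For the JAK3 inhibitors they belonged to Slc28a2b at 0.27 (IFN.6226) and Slc25a17 at 0.22 (IFN.6228). The next smallest were those of Slc25a22 at 0.26 for JAK2, Slc12a8 at 0.20 for JAK1/2, Slc6a20a at -0.15 for PAN, Slc16a5 at -0.31 for TYK2, Slc12a3 at -0.28 for IFN.6226 and Slc37a3 at 0.24 for IFN.6228. In the F test over the 7 inhibitors 0 of 190 passed in limma, with Slc39a7 lowest at an adjusted p of 0.0941, and the background of calls was 1.46%. In that test 13 had an unadjusted p under 0.05, or 6.84%, beside 10.3% of all genes tested.

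The last comparison set the 4 inhibitors naming JAK1 or TYK2 (the PAN inhibitor among them) against the 3 naming only JAK2 or JAK3, since JAK1 and TYK2 serve the interferon receptor. At 2 h 0 of the 190 carriers passed in limma, and the background of calls was 0.697%. An unadjusted p under 0.05 was found in 7, or 3.68%, beside 4.12% of all genes tested. The classes did not overlap in 12 members, 6.32% beside a background of 5.03%, with 6 higher (background 1.89%) and 6 lower (background 3.15%). Slc25a22, which imports glutamate into mitochondria, had the smallest p. Its log2 intensities were 7.77, 8.01, 7.87 and 7.91 with JAK1, JAK1/2, PAN and TYK2 inhibitors, against 8.30, 8.17 and 8.16 with the JAK2 and both JAK3 inhibitors. The difference was -0.32 (SE 0.08, 95% interval -0.49 to -0.16, limma adjusted p 0.118). Slc15a3, a lysosomal carrier of histidine and bacterial peptides that is known as an interferon-inducible gene, had 6.72, 6.81, 6.73 and 6.71 in the JAK1 or TYK2 class, against 7.11, 6.99 and 6.89 in the JAK2 or JAK3 class. It differed by -0.25 (SE 0.08, 95% interval -0.42 to -0.09, limma adjusted p 0.369). Slc45a4 at -0.19 and Slc46a3 at -0.16 followed, both without overlap and with limma adjusted p of 0.792 and 0.995.

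The core of the interferon-stimulated response element, searched on both strands, occurred in 4 of the 198 promoter windows of members, or 2.02%. It occurred in 3.44% of all windows, which again include genes not tested here. The 4 were in Slc25a15, Slc28a2b, Slc37a1 and Slc25a22. The stretch of Slc25a22 is shown only because the gene led the comparison at 2 h, and the match says nothing about binding. The core (read here on its other strand) is in capitals, 79 to 70 bases before a RefSeq start site inside the gene.
Slc25a22 promoter, chr7:141435415-141435484, minus strand: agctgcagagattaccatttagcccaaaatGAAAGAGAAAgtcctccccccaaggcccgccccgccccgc

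At 8 h 0 carriers passed in limma, and the background of calls was 0%. An unadjusted p under 0.05 was found in 25, or 13.2%, beside 15.6% of all genes tested. The classes did not overlap in 33 members, 17.4% beside a background of 19.2%, with 13 higher (background 5.52%) and 20 lower (background 13.7%). The members' median difference was -0.06, against -0.08 over all genes. The ATP-magnesium and phosphate carrier Slc25a24 had 7.85, 7.71, 8.15 and 8.02 in the JAK1 or TYK2 class, against 8.36, 8.22 and 8.45 in the JAK2 or JAK3 class, a difference of -0.41 (SE 0.12, 95% interval -0.67 to -0.16, limma adjusted p 0.307). The myo-inositol carrier Slc5a3 had 7.76, 8.09, 8.04 and 8.10 in the JAK1 or TYK2 class, against 8.48, 8.25 and 8.32 in the other, a difference of -0.35 with the same adjusted p. In the other direction lay the cation-chloride cotransporters Slc12a3 and Slc12a5, both at 0.31. The 8 h minus 2 h change differed between the classes in 0 carriers in limma (background of calls 0.102%). An unadjusted p under 0.05 for this change was found in 15, or 7.89%, beside 10.1% of all genes tested. The classes did not overlap in 14, 7.37% beside a background of 8.99%, with 3 higher (background 3.09%) and 11 lower (background 5.9%). The smallest p belonged to Slc12a5 at 0.45, Slc5a3 at -0.45, Slc30a9 at -0.30 and Slc35e3 at 0.44, with a limma adjusted p of 0.479 each. With 4 values against 3, a missed threshold does not show that the classes act alike on these carriers.

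**Figure D5:**
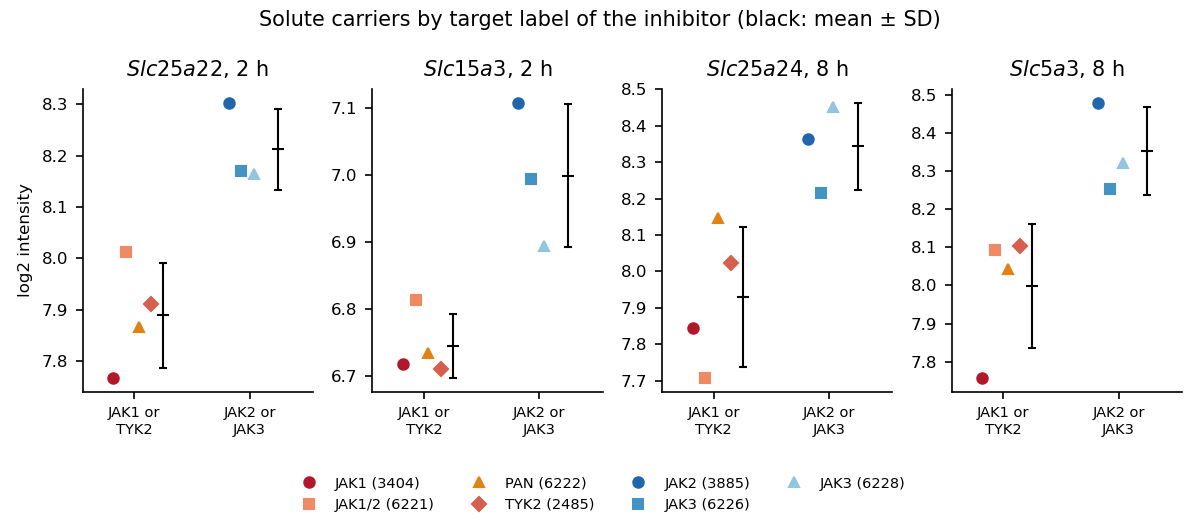
Log2 intensity (y axis) of 4 carriers with the JAK1 or TYK2 class left of the JAK2 or JAK3 class (x axis), for Slc25a22 and Slc15a3 at 2 h and Slc25a24 and Slc5a3 at 8 h. Each symbol is 1 array and black bars are the mean ± SD over inhibitors; the classes do not overlap in any of the 4 panels, and no adjusted p passed the threshold.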

How the data were processed

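The authors deposited a linear intensity for every probe set, and per the submitters' processing notes they used RMA and Affymetrix Power Tools, with no version given. Linear scale was inferred from the values, which ran from 4.78 to 22879 with array medians of 109 to 121, and log2 was taken here. The genome build is not given in the sources used here. Of 24922 probe sets, 21425 carried 1 symbol and were used, and a gene's brightest stood for it (9 members had several). The brightness limit uses the mean over all 14 arrays.

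Tests were limma 3.58.1 fits in R 4.3.3 (lmFit, eBayes with a variance trend) over 11761 genes, with Benjamini-Hochberg adjustment over all of them and a threshold of 0.05. Times and single inhibitors came from 1 additive fit of inhibitor and time (6 residual degrees of freedom), and classes from 4 values against 3 (5 degrees). The fits were tested on simulated data. The number of arrays limits the precision. SE and intervals are those of the fit, and substrate groups follow the Slc family number.

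The members, lists and comparisons were chosen with earlier results of these data known. Named are the 10 largest changes in each direction with 1 sign under all 7 inhibitors, the 4 largest calls per inhibitor and direction or the 2 smallest p, the 4 smallest p per class comparison, the 10 brightest members and the 8 of largest SD, up to 3 per substrate group by moderated t, those at the brightness limit and a fixed set of carriers of known role. Other members named with time, and Slc44a2, Slc25a4, Slc20a1, Slc37a3 and Slc25a22 with the JAK1 inhibitor, were chosen after their values were seen. Alternatives were 3 scalings, 2 filters, averaged probe sets, no trend, robust moderation, an offset of 50, no pairing by inhibitor, the JAK3 inhibitors averaged, each inhibitor left out, and the JAK1 8 h array left out.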

Additional observations from a re-analysis of the deposited data

Results flagged for a closer look

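In 86 sets of 7 arrays (a named carrier at 1 time), 15 had an array whose gap to its nearest neighbour took up more of the whole range than Dixon's 95% critical value allows. Chance gives about 1 in 20 for sets picked without regard to their values, but several of these carriers were named because an inhibitor differed in them, so the count is not to be read against that share. The 8 h array of the JAK1 inhibitor was lowest in 45.6% of all genes tested. The 8 h array of the JAK1 inhibitor was the lowest array in 9 of them. Its log2 intensity was 7.62 in Slc25a20 (next array 8.12), 7.60 in Slc25a22 (7.94), 9.44 in Slc28a2 (9.81), 8.52 in Slc35b4 (9.02) and 8.01 in Slc35d2 (8.50). It was 7.11 in Slc35f2 (7.63), 8.54 in Slc39a7 (8.93), 7.29 in Slc43a1 (7.57) and 8.35 in Slc7a6 (8.79). The JAK2 inhibitor gave 4, with its 8 h array highest in Slc12a2 at 7.83 (next 7.52) and in Slc2a6 at 8.57 (8.09), and its 2 h array lowest in Slc12a7 at 8.35 (8.54) and in Slc38a9 at 8.76 (9.03). The 2 h array of the JAK1 inhibitor was lowest in Slc12a9 at 7.14 (7.40), and the 2 h array of the JAK3 inhibitor IFN.6228 was highest in Slc25a17 at 10.21 (10.04).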

How the results depend on the processing

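The count of carriers changed with time was 73 to 106 over all settings (79 to 104 with 1 inhibitor left out), and 0 of the 96 turned sign in any. The 73 came with the filter at the 60th percentile, where 71 of the 96 were tested and all 71 stayed called. Higher calls made up 54.2% of the 96, and 43.9% of the calls with median centring. The 10 carriers called with the JAK1 inhibitor became 18 with quantile normalization (9 of the 10 shared), 17 with cyclic loess, 5 with median centring and 0 without its 8 h array, the one setting that ended every call. Leaving out 1 inhibitor gave 2 to 20 (2 without IFN.6228, 5 without IFN.6226, 6 without IFN.2485, 20 without IFN.3885). The cause was not tested. For the other 6 inhibitors and the 3 class comparisons the count was 0 in every setting run, averaging the JAK3 inhibitors included. Leaving out the JAK1 8 h array does not apply to the class comparison at 2 h. Of the values of named carriers over the settings, 809 stayed on their side of the threshold with time, 22 lost the call and 9 gained it, and with the JAK1 inhibitor 63 stayed on their side and 17 lost the call. Without pairing by inhibitor 99 carriers changed with time. No paired analysis was possible because of the replicate numbers, which are 1 for every sample and so give no block, while the times were paired by inhibitor in the fit itself. Dim genes near the brightness limit allow small differences to go unseen.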
